A study of Mus musculus with 16 samples.

Results

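The cytochrome P450 (Cyp), UDP-glucuronosyltransferase (Ugt), glutathione S-transferase (Gst) and sulfotransferase (Sult) gene families were followed here through sorted fractions of the mouse olfactory mucosa. Members were every probe set whose annotated symbol begins with Cyp1 to Cyp4, Ugt1 or Ugt2, Gst with a class letter, or Sult. Of 131 matching symbols, 4 pseudogenes were left out. The remaining 127 genes, of 19505 named genes on the array, comprised 77 Cyp, 8 Ugt, 21 Gst and 21 Sult genes, each with 1 probe set. All 8 Ugt members belong to the Ugt2 family. Ugt2a1, Ugt2a2 and Ugt1a6a had no probe set in the annotation used, so these genes were not measured here.

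P450 enzymes oxidise fat-soluble molecules, and the other families attach glucuronic acid, glutathione or sulfate to the products or to the parent molecule. The olfactory mucosa is known for a dense supply of these enzymes, held mainly by its supporting (sustentacular) cells and Bowman glands, where they clear odorants and inhaled toxicants. Odor is detected by neighbouring olfactory sensory neurons, in which S100a5 is a gene switched on by activity.

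All mice carried the S100a5-tauGFP reporter, which places green fluorescent protein under S100a5, so GFP+ cells are the cells with an active reporter and GFP- cells are everything else in the suspension. The 24 mice, of both sexes and 7 to 12 weeks old, sat singly for 40 h in chambers flushed with clean air at 3.1 L/min, and from 26 h on they received a 10 s pulse every 20 min. The pulse was filtered air for the vehicle groups and 2-hexanone, a short ketone with a strong odor, for the odor groups. Mucosa was dissociated and sorted in pools of 3 mice, giving 4 pools per treatment and 4 groups of 4 arrays: vehicle GFP-, vehicle GFP+, odor GFP- and odor GFP+. Fractions with the same treatment and replicate number were taken to be from the same mice, and no replicate is a single animal.

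Each probe set has 1 deposited log2 value per array. These values reached 19.51 to 19.81 per array, above what 16 bits of scanner range allow, so folds are given on the deposited scale, whose transformation is unknown. Each array's background floor was the brightest of 23 background probe bins and lay between 6.16 and 7.33. S100a5 itself read 14.54 to 15.60 in the vehicle GFP- fraction and 16.11 to 17.02 in the vehicle GFP+ fraction, a difference of 1.38 ± 0.25 (SE, adjusted p = 0.000514, limma with Benjamini-Hochberg adjustment over 22206 probe sets). The sort therefore enriched the reporter's gene without emptying the GFP- fraction of it. Omp, the marker of mature olfactory neurons, read 19.19 to 19.50 on all 16 arrays, near the top of the scale. The fractions differed in marker genes of other cell types. All 15 neutrophil and macrophage genes were lower in vehicle GFP+ cells (array means 4.61 to 5.42, against 10.97 to 13.18), as were all 10 microvillous cell genes. So were 6 of 8 lymphocyte and mast cell, 5 of 10 basal and progenitor and 5 of 13 immature neuron genes, and 0 of 6 ensheathing glia genes. Over all probe sets 9.86% were lower.

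Most members gave no signal above background. On every array, 101 of the 127 members (79.5%) read under the floor, compared with 46% of all tested probe sets. Only 14 members (11%, against 36.7% of all) lay above the floor on all 16 arrays: 9 Cyp, 3 Gst, 2 Sult and no Ugt gene. The other 12 lay between. The 14 were Cyp2a4, Cyp2a5, Cyp2c23, Cyp2f2, Cyp2g1, Cyp2j12, Cyp2s1, Cyp2u1, Cyp4f13, Gstm1, Gstm4, Gstz1, Sult1d1 and Sult4a1. Under the stricter measure of the 95th percentile of each array's negative controls, 10 of them remained, the ones dropping out being Cyp2a4, Cyp2c23, Gstm4 and Gstz1. The 8 Ugt members averaged between 2.53 and 4.26 over the 16 arrays, far under the floor.

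**Figure D1:**
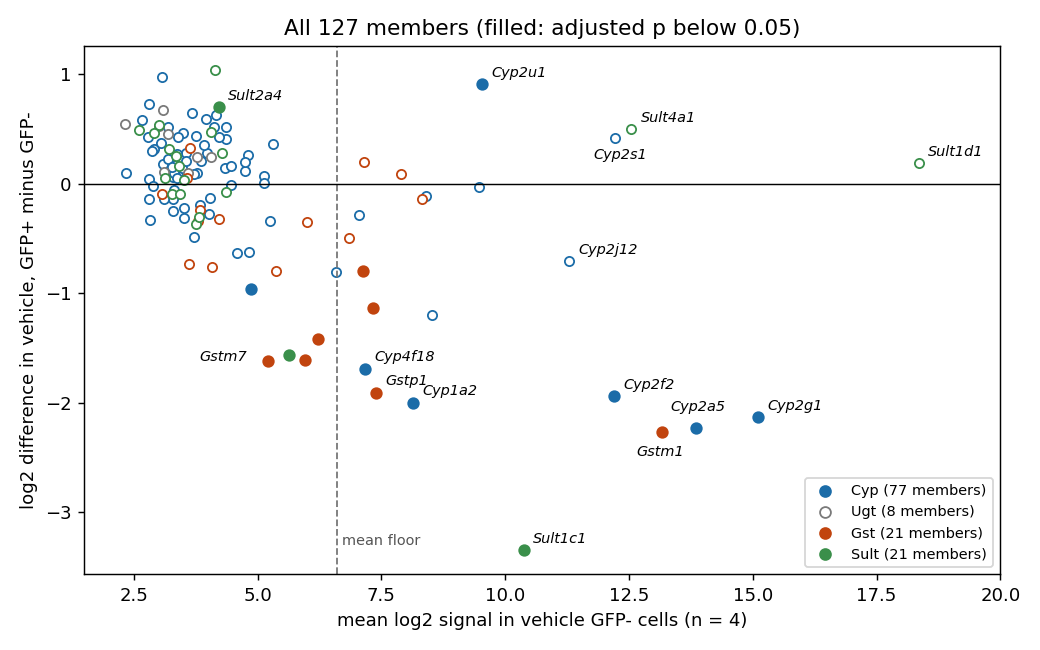
Mean log2 signal of the 127 members in vehicle GFP- cells (x axis, n = 4 arrays, mean floor dashed at 6.61) against the log2 difference between vehicle GFP+ and GFP- cells (y axis); filled points passed the test. Most members sit left of the floor near 0, and the members to its right spread from Cyp2u1 at 0.91 to Sult1c1 at -3.35; levels of different probe sets are not comparable with each other.

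The first comparison asked which enzymes differ between reporter-active cells and the rest of the mucosa. In vehicle mice 15 of 127 members (11.8%) were lower in GFP+ cells and 2 were higher, where over all 22206 probe sets 9.86% were lower and 5.83% higher. In odor mice 14 members (11%) were lower and 2 higher, against 9.56% and 5.29% of all. The members' share of lower calls was thus near that of all probe sets. Their median difference was 0.10 in vehicle and 0.12 in odor mice, beside 0.14 for all probe sets in each. The 2 sets are unlike in signal, as 79.5% of members and 46% of all probe sets read under the floor on every array. Among the 14 members above it on all 16 arrays, 4 (28.6%) were lower and 1 was higher in each treatment. The share of all probe sets so selected was not counted. The families were uneven: 7 of 21 Gst members were lower in vehicle mice, 6 of 77 Cyp, 2 of 21 Sult and 0 of 8 Ugt. The corresponding counts in odor mice were 6, 5, 3 and 0. Detection was uneven too, with 52.4% of Gst, 83.1% of Cyp, 85.7% of Sult and 100% of Ugt members under the floor on all arrays. The Gst median was -0.50 in vehicle and -0.52 in odor mice, and -0.14 and -0.17 with arrays centred on their medians. Leaving out the lowest 40% of probe sets kept 12 Gst members with medians of -0.80 and -0.92, and 18 Cyp members with -0.32 and -0.34. With values raised to the floor the Gst median cannot be read. As 11 of 21 Gst members lay under the floor on all arrays, it gives the floors' own difference, -0.10 and 0.02, as in every family. Whether the families differ from other genes was not tested. In sorted pools, fewer cells of a type and less RNA per cell cannot be told apart.

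**Figure D2:**
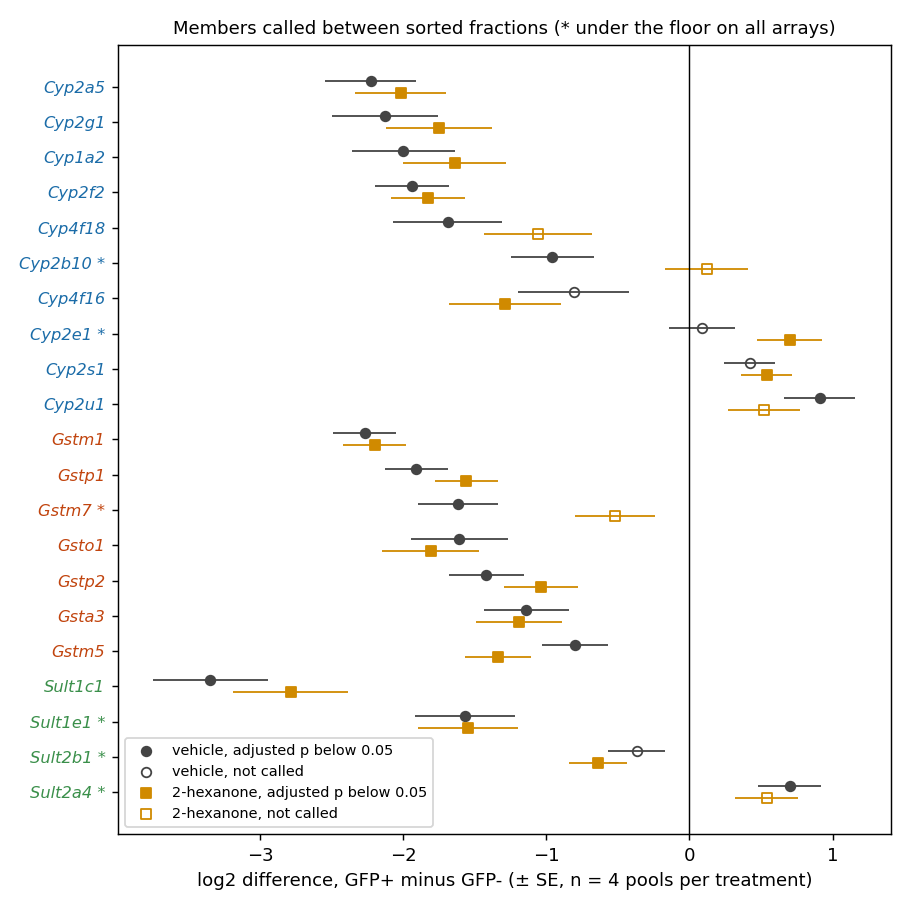
Log2 difference, GFP+ minus GFP- (points, with SE), of the 21 members called in either treatment; filled symbols passed the adjusted threshold of 0.05 and stars mark genes under the floor on all arrays. Sult1c1, Gstm1, Cyp2a5 and Cyp2g1 lie farthest left in vehicle mice, between -3.35 and -2.13, and the 4 genes with a filled symbol right of 0 are Cyp2u1, Sult2a4, Cyp2s1 and Cyp2e1.

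Among the P450 genes the clearest differences fell on neighbours of the Cyp2 cluster on chromosome 7. Cyp2g1, a P450 known for its expression in olfactory mucosa, read 15.62, 15.13, 15.41 and 14.27 in vehicle GFP- cells and 13.31, 13.76, 13.07 and 11.76 in vehicle GFP+ cells. In odor mice it read 15.62, 15.63, 15.21 and 15.33 in GFP- cells and 13.58, 14.41, 13.49 and 13.31 in GFP+ cells. The GFP- arrays were higher in both treatments and the fractions did not overlap, although the GFP+ arrays stayed far above the floor. The difference was -2.13 ± 0.37 in vehicle (4.39-fold lower, adjusted p = 0.000324, limma) and -1.75 ± 0.37 in odor mice (3.37-fold lower, adjusted p = 0.00214, limma), and all 8 pools were lower in GFP+ cells.

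Cyp2a5, the mouse coumarin hydroxylase, read 14.31, 13.89, 13.89 and 13.32 in vehicle GFP- cells against 11.53, 12.07, 12.19 and 10.68 in vehicle GFP+ cells. In odor mice the GFP- arrays read 13.78, 14.49, 14.45 and 14.24 and the GFP+ arrays 11.54, 12.40, 12.78 and 12.17. The fractions again stood apart in both treatments. GFP+ cells were lower by 4.70-fold in vehicle (log2 -2.23 ± 0.32, adjusted p = 4.67e-05, limma) and 4.05-fold in odor mice (log2 -2.02 ± 0.32, adjusted p = 0.000141, limma).

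Cyp2f2, which activates naphthalene in airway epithelium, read 12.66, 12.24, 12.54 and 11.37 in vehicle GFP- cells and 10.53, 10.16, 10.45 and 9.90 in vehicle GFP+ cells. Odor mice gave 12.40, 12.67, 11.88 and 12.60 in GFP- and 10.30, 10.76, 10.64 and 10.54 in GFP+ cells. Every GFP- array exceeded every GFP+ array. The difference was -1.94 ± 0.26 in vehicle (3.85-fold lower, adjusted p = 1.97e-05, limma) and -1.83 ± 0.26 in odor mice (3.55-fold lower, adjusted p = 4.11e-05, limma).

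Cyp2a4, a steroid hydroxylase that is a close copy of Cyp2a5, gave 10.05, 8.27, 7.78 and 8.02 in vehicle GFP- cells against 8.02, 7.71, 6.78 and 6.79 in GFP+ cells. The first GFP- array stood above the others, and the vehicle fractions overlapped. In odor mice Cyp2a4 read 9.71, 8.50, 8.59 and 7.87 in GFP- and 7.61, 7.38, 7.47 and 7.56 in GFP+ cells. There too the first GFP- array was the highest, but the fractions did not overlap. The difference of -1.20 ± 0.44 in vehicle missed the threshold (adjusted p = 0.076, limma), as did -1.16 ± 0.44 in odor mice (adjusted p = 0.0899, limma). With the pool as a fixed block, which compares the fractions taken to be from the same mice, both passed (adjusted p = 0.013 and 0.0161, limma). GFP+ cells were lower in all 8 pools, by 0.31 to 2.10 in size.

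The 250 bases before the start of both genes are shown because they nearly coincide, at 245 of 249 aligned bases (98.4%). The windows are from RefSeq, build GRCm38.p6, plus strand, chr7:26835089-26835338 for Cyp2a5 and chr7:26306942-26307191 for Cyp2a4. Capitals mark TATAAA, which begins 29 and 28 bases before the start.

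Cyp2a5: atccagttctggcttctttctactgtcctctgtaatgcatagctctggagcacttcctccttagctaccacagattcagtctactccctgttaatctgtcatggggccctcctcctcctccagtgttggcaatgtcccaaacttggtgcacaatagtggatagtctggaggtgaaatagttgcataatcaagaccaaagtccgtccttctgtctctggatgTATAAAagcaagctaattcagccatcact

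Cyp2a4: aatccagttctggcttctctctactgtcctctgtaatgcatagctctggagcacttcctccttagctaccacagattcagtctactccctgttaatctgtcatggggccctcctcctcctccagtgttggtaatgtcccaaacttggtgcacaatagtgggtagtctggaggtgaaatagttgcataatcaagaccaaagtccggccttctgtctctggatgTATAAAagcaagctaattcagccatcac

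So close a copy can also share array probes, and what each Cyp2a probe set binds was not tested.

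The remaining genes of this cluster did not follow the same course. In gene order the 13 members were Cyp2s1, Cyp2b10, Cyp2b13, Cyp2b9, Cyp2a4, Cyp2b23, Cyp2b19, Cyp2g1, Cyp2a5, Cyp2a22, Cyp2a12, Cyp2f2 and Cyp2t4, and 8 of them read under the floor on every array. Cyp2s1, a P450 found mainly outside the liver, gave 12.37, 12.27, 12.27 and 12.54 in odor GFP- cells and 12.86, 13.05, 12.72 and 12.96 in odor GFP+ cells. It was the cluster's only member above the floor that was higher in GFP+ cells, by 0.54 ± 0.18 in odor mice (1.45-fold, adjusted p = 0.0478, limma). In vehicle mice it read 12.06 to 12.55 in GFP- and 12.28 to 12.95 in GFP+ cells, differing by 0.42 ± 0.18, which missed the threshold (adjusted p = 0.126, limma). The odor call was lost with the pool as a fixed block (adjusted p = 0.063, limma) and when any 1 odor pool, or vehicle replicate 2 or 4, was left out. It was also lost under quantile normalization, in a fit of only the arrays compared and with values raised to the floor. Cyp2b10, the classic phenobarbital-induced P450, was lower by 0.96 ± 0.29 in size in vehicle GFP+ cells (adjusted p = 0.0319, limma) but stayed under the floor on all arrays, and its call ended without vehicle replicate 1, 2 or 3. Cyp2t4, under the floor on all arrays too, was not called as fitted. Its odor difference of 0.63 passed as higher with a fixed or random pool block (adjusted p = 0.0255 and 0.0472, limma).

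**Figure D3:**
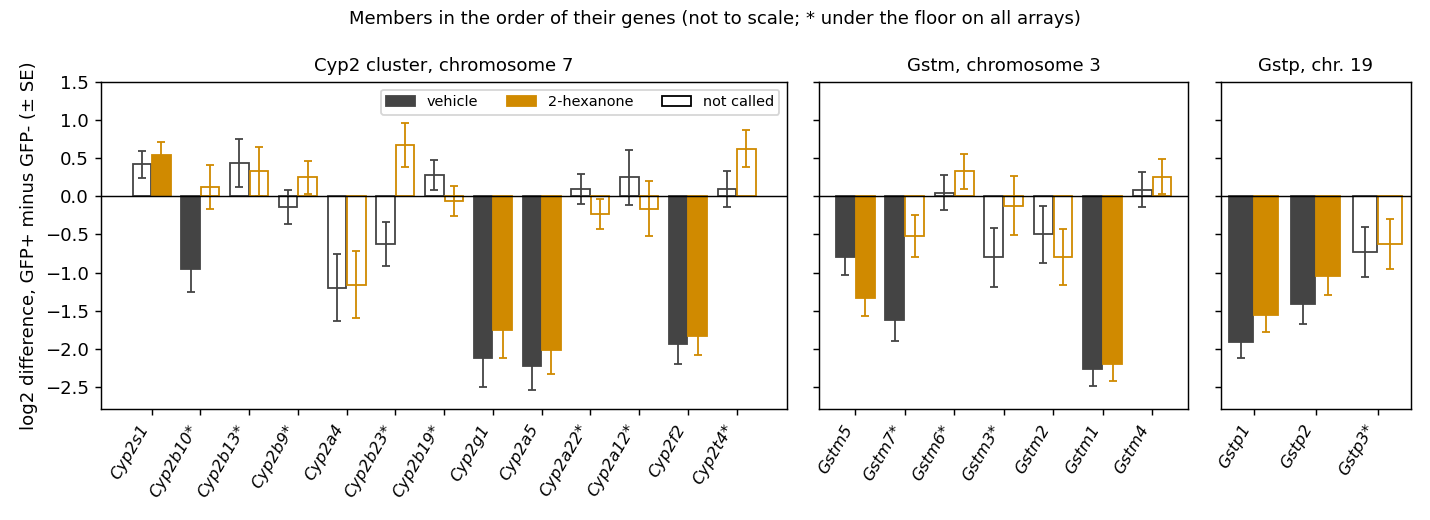
Log2 difference, GFP+ minus GFP- (bars, with SE), for members of 3 gene clusters in chromosomal order, not to scale; filled bars passed the test and stars mark genes under the floor on all arrays. Cyp2g1, Cyp2a5 and Cyp2f2 in the first panel, Gstm1 and Gstm5 in the second and Gstp1 and Gstp2 in the third are filled in both treatments. Cyp2b10 and Gstm7 are filled in vehicle mice alone and Cyp2s1 in odor mice alone, and the other neighbours had no call as fitted.

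Cyp1a2, which oxidises caffeine and aromatic amines, read 8.98, 8.23, 8.26 and 7.09 in vehicle GFP- cells and 6.28, 6.35, 6.22 and 5.72 in GFP+ cells. In odor mice the values were 8.61, 7.81, 7.69 and 8.17 in GFP- and 6.77, 7.19, 5.81 and 5.96 in GFP+ cells. Every GFP- array was above its floor, and 1 of 4 GFP+ arrays in each treatment. The fitted difference was -2.0 ± 0.36 in vehicle and -1.64 ± 0.36 in odor mice (adjusted p = 0.000482 and 0.00302, limma), and with values raised to the floor the fold was 3.15 and 2.23. Its relatives Cyp1a1 and Cyp1b1, which respond to aromatic hydrocarbons, passed no test and lay under the floor throughout.

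The Cyp4f genes, whose enzymes hydroxylate fatty acids and leukotrienes, gave 2 dim calls. Cyp4f18, known from neutrophils, read 6.15, 7.52, 6.54 and 8.45 in vehicle GFP- cells and 5.16, 5.22, 5.62 and 5.91 in GFP+ cells. GFP- cells exceeded the floor on 2 of 4 arrays and GFP+ cells on none, so GFP+ cells were at least 1.64-fold lower (adjusted p = 0.00378 for the values as deposited, limma). With values raised to the floor this difference did not pass (adjusted p = 0.0888, limma). In odor mice all 4 GFP- arrays were above the floor and the bound was 1.46-fold; the difference did not pass as fitted (adjusted p = 0.0711, limma) and passed with the pool as a fixed or random block (adjusted p = 0.0363 and 0.038, limma). The neutrophil and macrophage genes moved in the same direction, all 15 of 15 in each treatment, and their part in this result was not tested. Cyp4f16 was at least 1.24-fold lower in odor GFP+ cells (adjusted p = 0.0291, limma), the p being for the values as deposited. This call ended without odor replicate 1, 2 or 3, under quantile normalization, under centring and with values raised to the floor (adjusted p = 0.514, limma). Cyp4f13, above the floor on all arrays, showed no call at -0.03 ± 0.30 and 0.43 ± 0.30.

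In the other direction, Cyp2u1, a fatty acid hydroxylase known from brain, read 9.98, 9.48, 9.30 and 9.37 in vehicle GFP- cells and 10.33, 10.22, 10.63 and 10.59 in GFP+ cells. In odor mice it gave 9.16, 10.08, 10.46 and 9.52 in GFP- and 10.39, 10.13, 10.63 and 10.14 in GFP+ cells. The vehicle fractions did not overlap and the odor fractions did. GFP+ cells were 1.88-fold higher in vehicle mice (log2 0.91 ± 0.25, adjusted p = 0.0163, limma), and the odor difference of 0.52 ± 0.25 did not pass (adjusted p = 0.196, limma). Leaving out vehicle replicate 3 or 4 ended the vehicle call (adjusted p = 0.112 and 0.108, limma). The difference between treatments was itself -0.39, with a 95% interval from -1.13 to 0.35. Cyp2j12, of an arachidonic acid epoxygenase subfamily and singled out after its values were seen, was lower in all 8 pools, by -0.71 ± 0.26 in vehicle and -0.70 ± 0.26 in odor mice. These differences missed the threshold as fitted (adjusted p = 0.0767 and 0.0812, limma) and passed with the pool as a fixed block (adjusted p = 0.0346 and 0.0366, limma). Cyp2e1, which oxidises ethanol and small solvents including ketones, was higher in odor GFP+ cells by 0.70 ± 0.23 (adjusted p = 0.0454, limma), but every one of its 16 values lay under the floor and leaving out any 1 odor pool, or vehicle replicate 1 or 3, ended the call.

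The Gst family held the largest share of members lower in GFP+ cells. Gstm1, a mu-class enzyme of the cytosol, read 13.07, 12.97, 13.33 and 13.30 in vehicle GFP- cells against 11.10, 11.37, 10.60 and 10.54 in GFP+ cells. In odor mice it gave 13.76, 13.44, 13.35 and 13.95 in GFP- and 11.68, 11.13, 11.22 and 11.65 in GFP+ cells. No GFP+ array came near the GFP- arrays. GFP+ cells were lower by 4.81-fold in vehicle (log2 -2.27 ± 0.22, adjusted p = 3.32e-07, limma) and 4.61-fold in odor mice (log2 -2.20 ± 0.22, adjusted p = 4.56e-07, limma), and by 1.60 to 2.76 in size on the log2 scale within the 8 pools.

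The other genes of the Gstm cluster on chromosome 3 stand in the order Gstm5, Gstm7, Gstm6, Gstm3, Gstm2, Gstm1 and Gstm4. Gstm5, known from brain and testis, read 7.30, 6.85, 7.13 and 7.26 in vehicle GFP- and 6.75, 6.19, 5.79 and 6.61 in GFP+ cells. Its odor values were 7.36, 7.48, 7.45 and 8.17 in GFP- and 5.97, 6.23, 6.48 and 6.42 in GFP+ cells. The fractions were apart, but only 2 vehicle and 1 odor GFP+ array exceeded their floors. The differences were -0.80 ± 0.23 and -1.34 ± 0.23 (adjusted p = 0.0224 and 0.000327, limma), or 1.42-fold and 1.84-fold with values raised to the floor, which kept the odor call and ended the vehicle call. The vehicle call also ended under quantile normalization, under centring and without vehicle replicate 2, 3 or 4. Gstm7 was called lower in vehicle mice alone, at -1.62 ± 0.28 (adjusted p = 0.000409, limma), entirely under the floor. Gstm3, also under the floor on all arrays, was lower in all 8 pools. As fitted it was not called, at -0.80 ± 0.39 and -0.12 ± 0.39. With the pool as a fixed block its vehicle difference passed (adjusted p = 0.00771, limma). Gstm4, above the floor on all arrays, differed by 0.09 ± 0.23 and 0.26 ± 0.23 and was not called, with 95% intervals from -0.40 to 0.58 and from -0.23 to 0.75.

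The pi-class genes lie side by side on chromosome 19, and Gstp1 encodes the form widely studied in epithelia and tumors. It read 7.26, 7.61, 6.99 and 7.74 in vehicle GFP- and 5.46, 5.11, 5.39 and 5.98 in GFP+ cells, and 7.59, 7.05, 7.40 and 7.25 against 5.95, 5.57, 6.07 and 5.45 in odor mice. All 8 GFP- arrays were above their floors and none of the 8 GFP+ arrays. GFP+ cells were thus at least 1.92-fold lower in vehicle (adjusted p = 4.22e-06, limma) and at least 1.51-fold lower in odor mice (adjusted p = 4.55e-05, limma), both p-values being for the values as deposited. With values raised to the floor the vehicle difference passed and the odor difference did not (adjusted p = 0.00299 and 0.0964, limma). Each bound sets the bright group's mean against the higher of the floor and the dim probe's own value. Gstp2 was lower too, at -1.42 ± 0.26 and -1.04 ± 0.26 (adjusted p = 0.000629 and 0.00927, limma), with only 1 array above its floor, and no fold is given; its odor call ended without odor replicate 3. Gstp3 was under the floor throughout and not called.

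The 250 bases before Gstp1 and Gstp2 match at 208 of 235 aligned bases (88.5%). They are shown as RefSeq minus-strand windows of build GRCm38.p6, chr19:4037913-4038162 for Gstp1 and chr19:4042222-4042471 for Gstp2, with the AP-1 motif TGANTCA in capitals, beginning 74 and 89 bases before the start.

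Gstp1: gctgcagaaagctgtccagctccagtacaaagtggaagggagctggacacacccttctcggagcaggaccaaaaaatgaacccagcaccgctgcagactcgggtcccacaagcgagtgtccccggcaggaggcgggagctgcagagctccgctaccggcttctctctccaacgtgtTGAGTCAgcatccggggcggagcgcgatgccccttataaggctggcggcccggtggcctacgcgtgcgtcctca

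Gstp2: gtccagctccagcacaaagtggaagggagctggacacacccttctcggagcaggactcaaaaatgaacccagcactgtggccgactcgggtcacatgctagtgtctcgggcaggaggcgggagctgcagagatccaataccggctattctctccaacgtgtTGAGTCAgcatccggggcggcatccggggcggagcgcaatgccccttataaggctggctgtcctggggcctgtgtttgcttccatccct

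Both transcripts can bind shared probes, and how far the Gstp values are separate was not tested.

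Windows of 250 bases before and 50 after the start were found for 107 of 127 members, 125 windows in all, and for 16 of the 17 members lower in GFP+ cells in either treatment, 19 windows. Both strands were searched for 5 motifs. TGANTCA lay in 31.6% of the windows of lower members, 13.6% of member windows and 7.81% of all 32851 windows. The antioxidant response core TGACNNNGC, which can overlap it, lay in 21.1%, 7.20% and 12.4%. The aromatic hydrocarbon receptor's core GCGTG lay in 42.1%, 19.2% and 32.4%, and the TATA box TATAAA in 31.6%, 31.2% and 13.6%. The Olf-1 core CCCNNGGG lay in 0 of the 19 windows, in 6.40% of member windows and in 13.7% of all. These shares describe letters in short windows and were not tested.

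**Figure D4:**
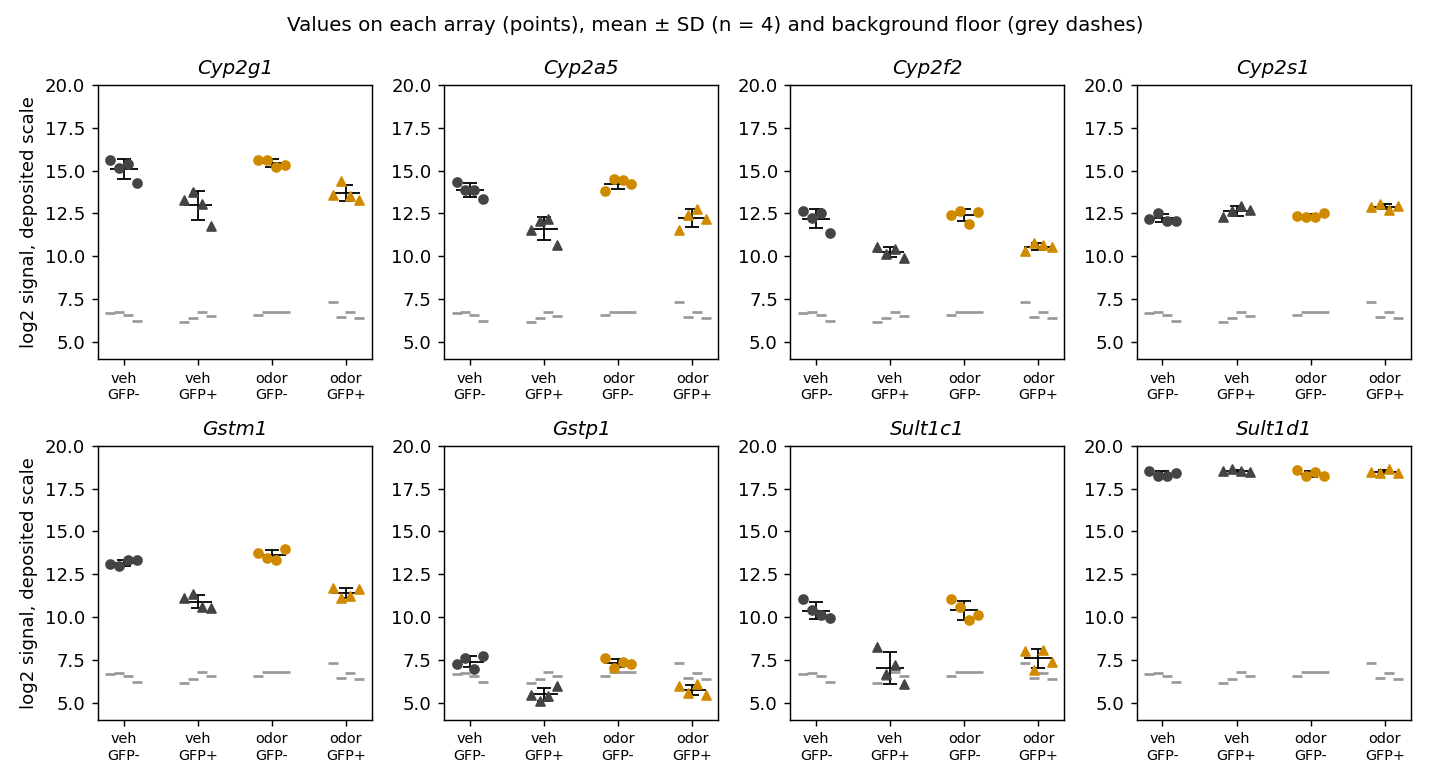
Log2 signal on each of the 16 arrays (points), group mean and SD (n = 4) and each array's floor (grey dashes) for 8 members. Cyp2g1, Cyp2a5, Cyp2f2 and Gstm1 fall in GFP+ cells yet stay above the floor, Gstp1 falls under it, Sult1c1 drops the farthest, and Cyp2s1 and Sult1d1 do not fall.

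Of the further Gst classes, Gsta3, an alpha-class enzyme that also isomerises steroids, read 7.04, 8.39, 7.14 and 6.78 in vehicle GFP- and 5.76, 6.10, 6.54 and 6.38 in GFP+ cells. All 8 GFP- arrays lay above the floor and no GFP+ array did. It was at least 1.84-fold lower in vehicle and at least 1.66-fold lower in odor GFP+ cells (adjusted p = 0.0121 and 0.00916, limma), in the values as deposited. The vehicle call ended without vehicle replicate 2 and the odor call without odor replicate 2 or 4, both ended under quantile normalization, and the odor call also ended with values raised to the floor (adjusted p = 0.123, limma). Gsto1, an omega-class enzyme that reduces dehydroascorbate, was lower by -1.61 ± 0.34 and -1.81 ± 0.34 (adjusted p = 0.00253 and 0.000861, limma) with 1 of 16 arrays above the floor, so no fold is given. Gstz1, the maleylacetoacetate isomerase of tyrosine breakdown, was above the floor on all arrays and not called, at -0.14 ± 0.22 and 0.54 ± 0.22. Gstk1 of mitochondria and peroxisomes was at 0.20 ± 0.24 and 0.19 ± 0.24. Gsta4, Gstm2 and Gstt1 were not called either.

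The sulfotransferases held the members with the widest contrast in behavior. Sult1c1, a phenol-type sulfotransferase known from sustentacular cells, read 11.05, 10.43, 10.09 and 9.92 in vehicle GFP- and 8.22, 6.65, 7.20 and 6.06 in GFP+ cells. In odor mice it read 11.05, 10.59, 9.83 and 10.09 in GFP- and 8.03, 6.92, 8.08 and 7.39 in GFP+ cells. The fractions were well separated, and 7 of the 8 GFP+ arrays still exceeded their floors. Vehicle GFP+ cells were lower by 3.35 ± 0.40 on the log2 scale, 9.37-fold with values raised to the floor (adjusted p = 5.5e-06, limma), and odor GFP+ cells were 6.90-fold lower (log2 -2.79 ± 0.40, adjusted p = 4.82e-05, limma).

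Sult1d1, which sulfates dopamine and related amines in the mouse, read between 18.22 and 18.57 on the 8 GFP- arrays and between 18.43 and 18.62 on the 8 GFP+ arrays. The ranges overlapped in part, with 6 of 8 pools higher in GFP+ cells, at a level close to the top of the scale, and whether the scale is compressed there was not tested. The difference was 0.19 in vehicle (95% interval -0.12 to 0.51) and 0.12 in odor mice (-0.19 to 0.44), neither passing (adjusted p = 0.44 and 0.659, limma). Sult4a1, a brain sulfotransferase without a settled substrate, gave 13.01, 12.55, 12.52 and 12.13 in vehicle GFP- and 13.37, 13.11, 12.89 and 12.84 in GFP+ cells. It was higher in GFP+ cells in all 8 pools, by 0.36 to 0.78, but the differences of 0.50 ± 0.20 and 0.58 ± 0.20 missed the threshold (adjusted p = 0.112 and 0.064, limma). With the pool as a fixed block both passed (adjusted p = 0.0423 and 0.0214, limma), whereas a random pool block left the vehicle difference short of it (adjusted p = 0.0583, limma).

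The remaining Sult calls concerned signals under the floor on all 16 arrays. Sult1e1, the estrogen sulfotransferase, was lower by -1.57 ± 0.35 and -1.55 ± 0.35 (adjusted p = 0.00349 and 0.00395, limma). Sult2b1, which sulfates cholesterol, was lower in odor mice by -0.64 ± 0.20 (adjusted p = 0.0359, limma; 0.0617 with the pool as a fixed block), a call that ended without odor replicate 2 or 4 or vehicle replicate 2. Sult2a4, of the steroid and bile acid sulfotransferases, was higher in vehicle mice by 0.70 ± 0.22 (adjusted p = 0.0333, limma), a call that ended without vehicle replicate 2, 3 or 4. No fold can be given for these, nor for Sult1a1, the phenol sulfotransferase, which was not called. None of the 8 Ugt genes, among them Ugt2a3 and Ugt2b36, passed in either treatment as fitted, and all 8 lay under the floor. With the fractions paired by pool Ugt2b34 was called higher in vehicle GFP+ cells, at 0.55 (adjusted p = 0.0238 with a fixed and 0.0448 with a random block, limma), still under the floor.

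The count of members higher in GFP+ cells depended on the scaling and on the pairing. It was 2 of 127 in each treatment as fitted and rose to 33 in vehicle and 43 in odor mice when arrays were centred on their medians. Of all 22206 probe sets, 1295 and 1175 were higher as fitted and 8986 and 8534 after centring. That step took the median over the whole array from 0.14 to 0.50 and 0.49. The share of higher genes among all calls then rose from 37.2% to 83.7% in vehicle and from 35.6% to 83.2% in odor mice, and quantile normalization put it at 49% and 48%. With the pool as a fixed block 5 members were higher in each treatment and 18 and 16 were lower. In the same fit 1589 and 1516 of all 22206 probe sets were higher in vehicle and odor mice, and 2301 and 2231 were lower. As fitted, 2189 and 2124 were lower. Calls not yet qualified that ended under a processing alternative were Cyp2b10 in vehicle and Sult2b1 in odor mice under centring, Cyp2e1 and Gstp2 in odor mice under quantile normalization, Cyp2b10 and Sult2a4 in vehicle and Sult2b1 in odor mice in a fit of only the arrays compared, and Sult2a4 in vehicle and Cyp2e1 and Sult2b1 in odor mice with a trended robust prior. Raising values to the floor ended the calls of Gsto1 and Gstp2 and of every called gene under the floor on all arrays. In vehicle mice 7 lower calls (Cyp1a2, Cyp2a5, Cyp2f2, Cyp2g1, Gstm1, Gstp1 and Sult1c1) passed under all 19 alternatives. In odor mice the 7 that did so were Cyp1a2, Cyp2a5, Cyp2f2, Cyp2g1, Gstm1, Gstm5 and Sult1c1.

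Markers of sustentacular cells moved beside these members. Outside the enzyme families, 6 of 12 such markers (50%) were lower in vehicle GFP+ cells and 7 (58.3%) in odor GFP+ cells, where 9.86% and 9.56% of all probe sets were lower. The markers had medians of -0.96 and -1.09, and 5 of the 12 lay under the floor on all arrays. Their mean per array ran from 6.81 to 7.01 in vehicle GFP- and from 5.42 to 5.93 in vehicle GFP+ cells, and from 7.02 to 7.54 against 5.88 to 5.96 in odor mice. Krt18, an epithelial keratin, was at least 6.70-fold lower in vehicle GFP+ cells, and Cbr2, a carbonyl reductase, 2.33-fold lower. Sec14l3 and Muc2 of the same list were above the floor on all arrays and not called. Of 15 Bowman gland markers, 8 (53.3%) were lower in each treatment and 5 lay under the floor on all arrays. This list shares Krt18 with the sustentacular list and Ltf with the neutrophil and macrophage list, so the counts are not separate. The part of sustentacular and gland cells in the members' differences was not tested.

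Other genes of the same chemistry were fixed as lists beside the members. Among 40 other oxidising and hydrolysing enzymes, 5 (12.5%) were lower and 0 higher in GFP+ cells in each treatment, a share near the 9.86% and 9.56% of all probe sets, led by Aldh2, the mitochondrial aldehyde dehydrogenase, at 31.7-fold lower in vehicle mice (log2 -4.99 ± 0.31, adjusted p = 1.31e-09, limma). Of 15 genes of glutathione supply and the microsomal transferases, 5 (33.3%) were lower in vehicle and 6 (40%) in odor mice, beside the same 9.86% and 9.56%, and 0 were higher. Among the lower genes were Gpx1, a glutathione peroxidase (28.3-fold), Mgst1, a microsomal transferase (14.7-fold with values raised to the floor), and Gsr, glutathione reductase (2.98-fold). Gss of this list was not called but was higher in all 8 pools, by 0.09 to 1.82. Whether the list differs from other genes was not tested. Aldh2 and Gpx1 are expressed in many cell types, and all marker genes of neutrophils and macrophages were lower in the same arrays; their part in these values was not tested.

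A list of P450 redox partners with related heme and binding proteins held 8 measured genes. They were Cyb5a, Cyb5b, Cyb5r1, Cyb5r3, Hmox1, Pgrmc1, Pgrmc2 and Alas1, and 1 further listed gene had no probe set. Only Alas1, an enzyme of heme synthesis and not a redox partner, passed. It was lower in both treatments, at -0.53 ± 0.16 and -0.59 ± 0.16 (adjusted p = 0.03 and 0.0158, limma). Of 18 P450 genes outside families 1 to 4, 2 were lower in vehicle and 3 in odor mice, Tbxas1 and Cyp27a1 in both, under the floor on all arrays. Of 14 regulators, which included the receptors Ahr and Nr1i2 and the factor Nfe2l2, none passed in vehicle mice and Nr1i2 was higher in odor mice, under the floor. Of 15 genes of cofactor supply and other conjugation, 0 passed in vehicle mice and Ugt8a was lower in odor mice, under the floor. Of 12 efflux transporters, Abcg2 and Abcc3 were lower in both treatments, Abcc3 by at least 1.46-fold in vehicle mice, and Abcc4 was higher in odor mice by 0.60 ± 0.19. Beside the counts of these lists, 9.86% of all probe sets were lower in vehicle and 9.56% in odor mice, and 5.83% and 5.29% were higher.

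The second comparison asked whether 2-hexanone changed the enzymes within a fraction. No member passed in GFP+ cells, in GFP- cells, or in the change of the sort difference between treatments, where 0.00901%, 0% and 0.00901% of all probe sets were called higher and none lower (limma). At an unadjusted p below 0.05 (limma) there were 14 of 127 members in GFP+ cells, 0 in GFP- cells and 9 for the change. Of all 22206 probe sets, 869, 547 and 650 lay below it. Whether the members' shares differ from those of all probe sets was not tested. The members' median was 0.07 in GFP+ and 0.03 in GFP- cells, beside 0 for all probe sets. Every adjusted p among members was 1 (limma), and none fell below the threshold in any alternative.

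The smallest unadjusted p in GFP+ cells belonged to Cyp2b10, at 1.00 ± 0.29 (unadjusted p = 0.00311, limma), followed by Cyp2b23 at 0.97, Cyp4f17 at -0.56 and Cyp2d10 at 0.72, all under the floor on all arrays. The next was Gstz1, which read 8.48, 7.72, 7.97 and 8.56 in vehicle GFP+ and 8.52, 9.10, 8.61 and 9.04 in odor GFP+ cells. These values overlapped between treatments, and the difference was 0.63 with a 95% interval from 0.16 to 1.11 (unadjusted p = 0.0114, limma). In GFP- cells the smallest was Gstm1 at 0.46 (95% interval 0.00 to 0.91, unadjusted p = 0.05, limma), then Gstm5 at 0.48, Cyp4f14 at 0.40, Cyp4f17 at -0.33 and Cyp4a31 at 0.39. For the change of the sort difference they were Cyp2b23 at 1.31, Gstm7 at 1.09, Cyp2b10 at 1.08, Gsto2 at 0.85 and Cyp4f40 at 0.75, all 5 under the floor.

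For the 14 members above the floor on all arrays the intervals give the size of odor difference that the deposited values allow. Their median estimate was 0.26 in GFP+ and 0.16 in GFP- cells, beside 0 for all probe sets in each. All 14 were measured on the same arrays, so their estimates are not separate observations of an odor effect. Whether they differ from other genes above the floor was not tested. Cyp2g1 differed by 0.72 (95% interval -0.05 to 1.5) in GFP+ and by 0.34 (-0.43 to 1.12) in GFP- cells. Cyp2a5 differed by 0.61 (-0.07 to 1.28) and 0.39 (-0.29 to 1.07), and Gstm1 by 0.52 (0.06 to 0.97) in GFP+ cells. Sult1d1 differed by -0.05 (-0.36 to 0.26) and 0.02 (-0.29 to 0.34), but it read near the top of the scale, so these intervals bound the deposited values only. The sustentacular markers outside the families had median odor differences of 0.30 in GFP+ and 0.32 in GFP- cells, and their part was not tested. These estimates share the vehicle and odor arrays of the sort comparisons.

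**Figure D5:**
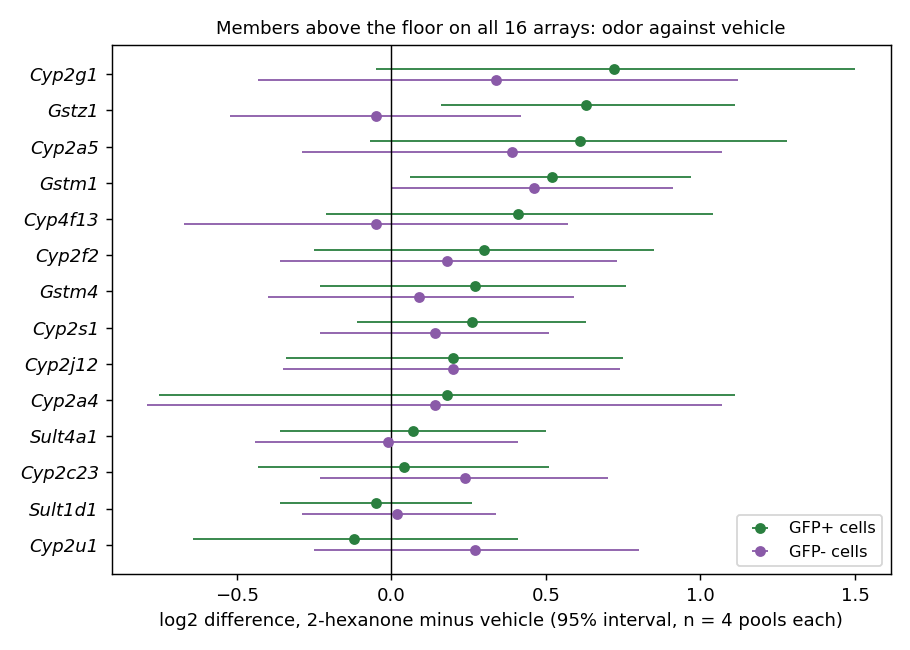
Log2 difference, 2-hexanone minus vehicle (points), with 95% intervals (n = 4 pools each), for the 14 members above the floor on all 16 arrays, in GFP+ and GFP- cells. Most intervals cross 0; those of Gstz1 and Gstm1 in GFP+ cells do not, and no adjusted p passed.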

How the data were processed

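Total RNA of sorted cells (50 to 100 ng) was hybridised to 16 mouse whole-transcript arrays, 1 colour each. The authors deposited 1 log2 value per probe set; per the submitters' processing notes this was done with Affymetrix Expression Console. For its version, summarisation step and annotation build the answer is: not given in the sources used here. A log2 scale with unknown summarisation allows differences between arrays, not levels between genes. Of 28846 probe sets 6640 controls were left out and 22206 tested; 19572 had 1 gene symbol, 2634 had none and 0 had several.

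One model with 4 group means over all 16 arrays (12 residual degrees of freedom) was fitted with lmFit and eBayes in limma 3.58.1 (R 4.3.3), with no covariate, and p-values were adjusted by Benjamini-Hochberg over all tested probe sets (threshold 0.05). The contrasts were GFP+ against GFP- per treatment, 2-hexanone against vehicle per fraction, and the difference between the treatments in the first. A gene under the floor on all arrays of 1 group has only a bound, and none is given when both groups are under it. The number of arrays, 4 a group, limits the precision, and each array is a pool of 3 mice.

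Fractions of the same number and treatment came from the same pool, per the labels. Deviations of 2 fractions of one pool from their group means correlated positively in all 8 pools, at 0.425, 0.0749, 0.161 and 0.109 for the odor pools, then 0.352, 0.0136, 0.0516 and 0.0837 for the vehicle pools. Arrays of different pools with the same number correlated too: the replicate 1 arrays across treatments at 0.259 to 0.419, and replicates 3 and 4 at up to 0.214, so the pairing rests on the labels. Members and lists were chosen with earlier results of these data known. Named genes were a fixed set of well-known members, the called members of each family at either extreme (up to 6 a direction), the 5 of lowest p per odor contrast, the 4 brightest per family and up to 3 per direction from each list; Cyp1a1, Cyp2j12, Cyp4f13, Gstp3, uncalled neighbours in clusters and Sec14l3 and Muc2 were named after their values were seen. Promoter windows are from RefSeq (GRCm38.p6). On simulated data for the vehicle sort contrast over 22206 probe sets, 44 of 100 changes of 1 and 96 of 100 changes of 2 (log2) were recovered, with 7 false calls. No other probe set was changed there, and the noise was independent between arrays, without pools. In the real vehicle contrast 15.7% of probe sets were called, so these rates need not hold for the real arrays. Alternatives were quantile normalization, centring, a filter on dim probe sets, other variance models, weights, the floor, pool and replicate blocks and leaving out pools.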

Additional observations from a re-analysis of the deposited data

Results flagged for a closer look

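Among the named members, 180 groups of 4 arrays were examined, and in 8 of them 1 array stood far from the other three; chance gives about 1 in 20 such groups. Gstm5 read 8.17 in odor GFP- replicate 4 against 7.36 to 7.48 in the others, the one flagged value above its background floor. Gsto1 read 3.51 in odor GFP+ replicate 4 against 4.66 to 4.71. Cyp1b1 read 3.73 in odor GFP- replicate 3 against 3.13 to 3.18, and 3.76 in odor GFP+ replicate 1 against 3.26 to 3.34. Cyp2e1 read 4.37 in odor GFP+ replicate 2 against 4.20 to 4.21. Sult1a1 read 5.02 in vehicle GFP- replicate 3 against 4.08 to 4.18. Gstt1 read 2.82 in vehicle GFP+ replicate 3 against 3.03 to 3.06, and Ugt2b38 read 3.19 in vehicle GFP- replicate 1 against 3.92 to 4.07.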

How the results depend on the processing

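No member passed in the odor contrasts or in the change of the sort difference under any alternative run. Higher members in vehicle mice (2 as reported) numbered 1 with a trended robust prior, 33 with centred arrays, 1 with the lowest 40% left out, 5 with a random pool block, 5 with a fixed one, 5 with the replicate block, 1 from only the arrays compared and 1 with values raised to the floor. Higher members in odor mice (2 as reported) numbered 5 with quantile normalization, 43 with centring, 6 with the random pool block, 5 with the fixed, 7 with the replicate block, 5 with array weights, 0 with values raised to the floor and 1 with both replicate 1 pools left out, an alternative chosen after seeing the data. Lower members, 15 in vehicle and 14 in odor mice, numbered 9 and 7 with values raised to the floor, which by construction leaves less difference. Leaving out 1 pool gave 0 to 5 higher and 13 to 15 lower members in vehicle, and 0 to 3 and 11 to 16 in odor mice. The replicate block, over both treatments, gave 18 and 17 lower members. The counts over all 22206 probe sets moved as well. Higher probe sets in vehicle and odor mice numbered 8986 and 8534 with centring, 1864 and 1735 with the random pool block and 1757 and 1642 with the replicate block. Lower ones numbered 1262 and 1095 with values raised to the floor and 2365 and 2283 with the replicate block.

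For genes whose compared values all lay under the floor, raising values to it leaves only the floors' own difference, -0.10 in vehicle and 0.02 in odor mice, so the sign turned for the called Sult2a4 in vehicle and Gsto1, Gstp2, Sult1e1 and Sult2b1 in odor mice. The other turned signs among named members were of differences that had not passed. With centring the vehicle differences became 0.07 (Cyp2j6), 0.02 (Cyp4b1), 0.01 (Gsta4), 0.27 (Gstt1), 0.22 (Gstz1) and 0.28 (Sult1a1), and Gstt1 in odor mice 0.15. Quantile normalization gave -0.06 for Cyp1b1 in vehicle mice, and leaving out both replicate 1 pools gave -0.05 (Cyp1b1, odor), 0.09 (Sult1a1, vehicle) and -0.01 (Ugt2b36, vehicle). Leaving out 1 pool turned the vehicle differences of Cyp1b1 (range over the pools -0.36 to 0.33), Cyp2e1 (-0.12 to 0.29), Gstm4 (-0.26 to 0.31), Gstt1 (-0.21 to 0.07), Gstz1 (-0.44 to 0.04), Sult1a1 (-0.18 to 0.09), Ugt2b35 (-0.17 to 0.43), Ugt2b36 (-0.01 to 0.48) and Ugt2b38 (-0.05 to 0.57), and the odor differences of Cyp1b1 (-0.05 to 0.30), Cyp2j6 (-0.55 to 0.04), Cyp4b1 (-0.02 to 0.35) and Gstt1 (-0.38 to 0.01). The causes were not tested. Counting every probe set was not run, since each member had 1. Under the floor, 101 members allow no fold.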
